A study of Mus musculus with 9 samples.

Results

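Cells copy their genome in S phase, and the 49 genes described here encode proteins that do this work, supply it, accompany it or regulate it. They were chosen by name, as replication licensing, polymerase, clamp and nucleotide supply genes, from the gene-level table of expected counts, where all 49 were matched among 41214 rows. The samples were endothelial cells that were sorted from mouse heart ventricles at E17.5, late in gestation. An endocardial population was set beside an arterial and a venous coronary population, with 3 libraries each and 9 in all. All embryos carried 1 copy each of the transgenes Nes-Gfp(Tg/0) and Nes-CreER(Tg/0), in which Nes regulatory sequence drives GFP and an inducible Cre, and of the Cre reporter R26(tom/+). All were exposed to 0.1 ug of tamoxifen at day 15.5. All 3 gates required living cells without Ter119 or CD45 and with CD31 and GFP. The arterial gate, which took intramyocardial arteries and capillaries, also required low endomucin and Tomato. The venous gate, which took subepicardial veins, also required low endomucin, low GFP and no Tomato. The endocardial gate as written names no endomucin or Tomato condition. No untreated or Cre-negative hearts are among the libraries, so the tamoxifen and the transgenes are common to all groups. Arterial and venous libraries together are called coronary below.

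Replication starts at origins, where the origin recognition complex (ORC) with Cdc6 and Cdt1 loads the hexameric MCM2-7 helicase, and geminin (Gmnn) holds Cdt1 back once S phase has begun. Cdc45 and the GINS complex then activate the helicase, polymerase alpha with primase lays primers, and polymerases delta and epsilon extend them on the sliding clamp PCNA, which the RFC complex loads. Many of these genes are transcribed at the G1 to S boundary by E2F factors, and their RNA is scarce in resting cells. At this stage of heart development the coronary vessels of the ventricular wall are still growing.

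Promoter letters bear on whether the members share a regulatory sequence that their selection by name did not use. A RefSeq promoter window (250 bases before to 50 after the start, assembly GRCm38.p6) was at hand for 41 of the 49 members. The windows were searched on both strands for 4 spellings of the E2F motif, TTTCCCGC, TTTGGCGC, TTTCGCGC and TTTGCCGC. One of them was present in the windows of 16 of 41 members (39.0%), 14 of 46 other replication and S-phase genes (30.4%), 1 of 27 mitosis genes (3.70%, Cdk1) and 519 of 12045 genes tested (4.31%). The letters lay before the RefSeq start in 10 members, and in 5 of these the stretch around them was clear of annotated exons. Those 5 stretches come from Mcm5, Mcm6 and Uhrf1, which were lower in endocardial than in coronary libraries, and from Cdc6 and Pola1, which were not called, and they show the letters in both kinds of member. Each is written 5′ to 3′ on the strand of its gene and lies before the RefSeq start of its window, with capitals for the E2F letters in either orientation. In Uhrf1, which has 2 windows, and in Cdc6 that start lies 992 and 350 bases inside the gene as the GENCODE annotation bounds it, and these stretches lie within the gene but outside its annotated exons.

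Mcm5 (chr8:75109340-75109383, plus strand): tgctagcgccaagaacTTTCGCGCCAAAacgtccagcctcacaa
Mcm6 (chr1:128359729-128359831, minus strand): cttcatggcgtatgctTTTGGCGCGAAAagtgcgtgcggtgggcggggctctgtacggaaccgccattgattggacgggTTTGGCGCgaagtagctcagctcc
Uhrf1 (chr17:56304112-56304151, plus strand): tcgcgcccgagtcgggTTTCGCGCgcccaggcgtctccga
Cdc6 (chr11:98907997-98908036, plus strand): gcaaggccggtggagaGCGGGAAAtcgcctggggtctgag
Pola1 (chrX:93632270-93632309, minus strand): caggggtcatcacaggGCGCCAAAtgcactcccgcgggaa

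In Mcm5 and in the first match of Mcm6, 2 spellings on opposite strands overlap, so that the capitals run to 12 letters. The same letters occurred in 7 of 17 members that were lower in endocardial libraries and had a window (41.2%), and in 9 of 24 members that were not called (37.5%). The cell cycle homology region (CHR, searched as TTTGAA and TTCGAA), known from promoters of mitosis genes, gave another distribution. It was present for 8 of 41 members (19.5%) and 22 of 27 mitosis genes (81.5%), against 2037 of 12045 genes tested (16.9%). CCAAT was present for 26 of 41 members (63.4%), 21 of 27 mitosis genes (77.8%) and 42.6% of the genes tested. These are counts of letters in windows and carry no test.

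**Figure D1:**
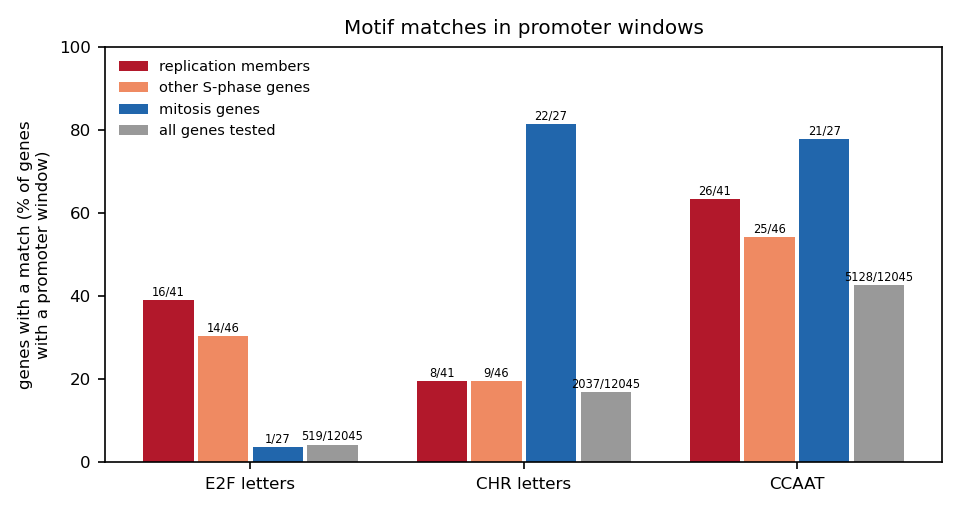
Share of genes whose promoter window holds at least 1 match (vertical axis, percent of genes with a window) for the E2F, CHR and CCAAT letters; colours mark the replication members, the other S-phase genes, the mitosis genes and all genes tested, and the numbers over the bars are genes with a match over genes with a window. E2F letters stand at 39.0% of members against 3.70% of mitosis genes, and CHR letters at 19.5% of members against 81.5% of mitosis genes.

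Libraries held 12750553 to 19474419 counts. Levels are given as CPM, the usual unit scaled to library size, after TMM scaling, and differences as log2 fold changes with a standard error (SE) from edgeR's quasi-likelihood test. Calls required an adjusted p under 0.05 (Benjamini-Hochberg, 17103 genes tested), and all 49 members were among those tested. The labels do not say that the replicates came from separate animals or litters, so the spread that the p-values rest on is that of these libraries and may be technical. In sorted cells sequenced in bulk, fewer cycling cells and less RNA per cycling cell cannot be told apart. Endocardial replicate 1 stood apart from its group, with 21021 genes above 0 against 17251 and 17063 in the other endocardial libraries, 19528 to 21160 in the arterial and 18354 to 19665 in the venous libraries. The sorts were checked on marker genes, and the sum of 1 list went against its label. The summed level of 12 pan-endothelial markers was 5019 to 7021 CPM in endocardial, 6540 to 8885 CPM in arterial and 6365 to 8436 CPM in venous libraries. Of these 12, Pecam1, Cdh5, Kdr and Esam were lower and Tek and Emcn higher in endocardial than in coronary libraries. The summed level of 10 endocardial markers was 5221 to 6809 CPM in endocardial, 374.6 to 426 CPM in arterial and 544 to 736 CPM in venous libraries. For 10 capillary and tip markers it was 581 to 668 CPM in endocardial, 4767 to 5465 CPM in arterial and 4338 to 5813 CPM in venous libraries. For 10 arterial markers it was 442 to 508 CPM in endocardial, 1234 to 1532 CPM in arterial and 547 to 618 CPM in venous libraries. For 6 venous markers it was 2614 to 2743 CPM in endocardial, 659 to 774 CPM in arterial and 1285 to 1360.0 CPM in venous libraries. The venous list was thus highest in endocardial libraries, where Nr2f2, Flrt2 and Cpe were higher and Aplnr and Nrp2 lower than in venous libraries. Of its 6 genes, 4 were lower in arterial than in venous libraries. Single genes of other lists also went against their labels. The arterial marker Gja4 was higher in endocardial than in venous libraries. The endocardial marker Tbx20 was not called there, but every endocardial library lay below every venous one.

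Together the 49 members took 0.155% to 0.164% of all counts in endocardial, 0.213% to 0.254% in arterial and 0.273% to 0.313% in venous libraries. Their summed level was 1513 to 1770 CPM in endocardial, 2085 to 2469 CPM in arterial and 2725 to 3114 CPM in venous libraries, and the 3 ranges did not overlap. The gene Gm42418 alone took 5.66% to 11.1% of counts in endocardial, 3.3% to 8.67% in arterial and 4.13% to 8.73% in venous libraries. It is part of the totals under the shares of all counts, and its effect on them was not measured. For 35 of 49 members (71.4%) the population means stood in the order endocardial, arterial, venous from low to high, an order seen in 2990 of the 17103 genes tested. Arterial was the lowest population for 10 members, and no member had its lowest mean in the venous libraries. Among all genes tested, arterial was lowest in 9.07% with venous highest and in 20.8% with endocardial highest. Venous was lowest in 19.3% with endocardial highest and in 14.9% with arterial highest. The median member stood at -0.59, -0.37 and -0.29 in the endocardial, 0.07, 0.01 and -0.17 in the arterial and 0.52, 0.35 and 0.46 in the venous libraries, as log2 CPM relative to its own mean.

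**Figure D2:**
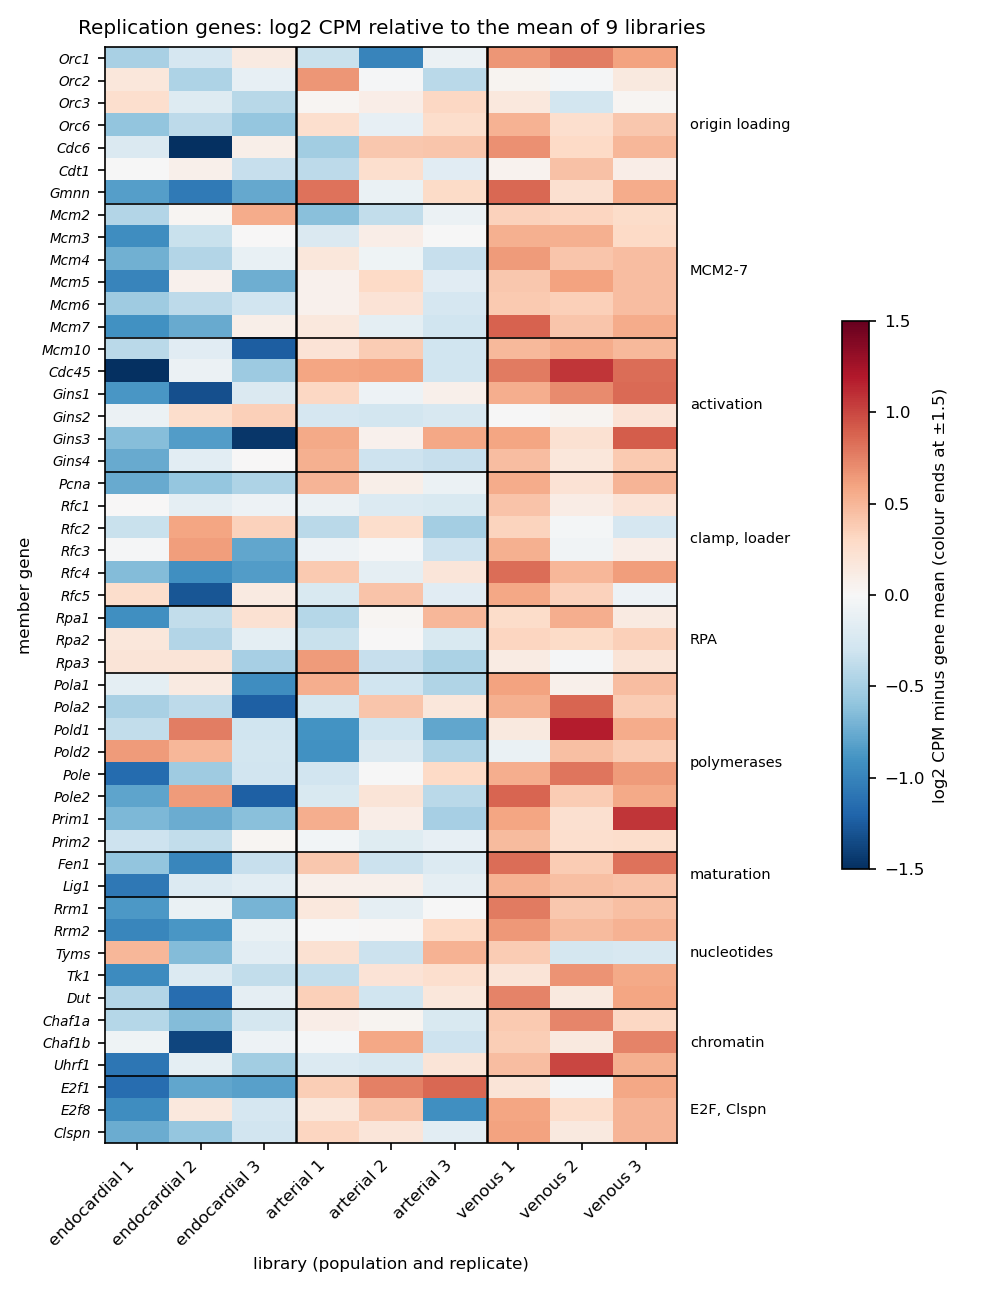
Level of each of the 49 members (rows, grouped by role) in each of the 9 libraries (columns), as log2 CPM minus the mean of that gene over all libraries; blue is below and red above the mean, and the colour scale ends at ±1.5. The 3 venous columns are red for most members and the endocardial columns mostly blue, with endocardial replicate 1 the lowest column (median -0.59).

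Against the coronary libraries (arterial and venous averaged on the log scale), 20 of 49 members were lower and 0 higher in endocardial libraries, 40.8% of the members, against 7.0% of all genes called lower and 6.91% called higher. At an unadjusted p under 0.05, 27 were lower and 0 higher (all genes either way 24.6%), and the count of higher members was 0 with DESeq2 too. The median difference of the members was -0.67 on the log2 scale, against 0.08 for all genes tested. Every endocardial library lay below all 6 coronary ones for 15 members (9.08% of all genes did so), below all arterial ones for 15 (13.2%) and below all venous ones for 34 (14.9%). Against the arterial libraries alone 5 members were lower and 0 higher (10.2%, all genes 5.92% lower and 5.75% higher), namely Gmnn, Gins3, Pcna, Rfc4 and E2f1, with a member median of -0.42. Against the venous libraries alone 23 were lower and 0 higher (46.9%, all genes 5.81% lower and 4.44% higher), with a member median of -0.89. They were the 20 members lower than in coronary libraries other than E2f1, and Mcm3, Gins1, Tk1 and Chaf1a. These comparisons share the endocardial libraries and are not independent of each other. Batch numbers equal replicate numbers, so each batch held 1 library per population. Within batches, the endocardial library was below both coronary ones in all 3 batches for 21 of 49 members (13.9% of all genes). Of the 20 called members, 16 did so in all 3 batches and 4 in 2. These 20 were called on the same libraries, so their direction within batches is no separate support for the calls.

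**Figure D3:**
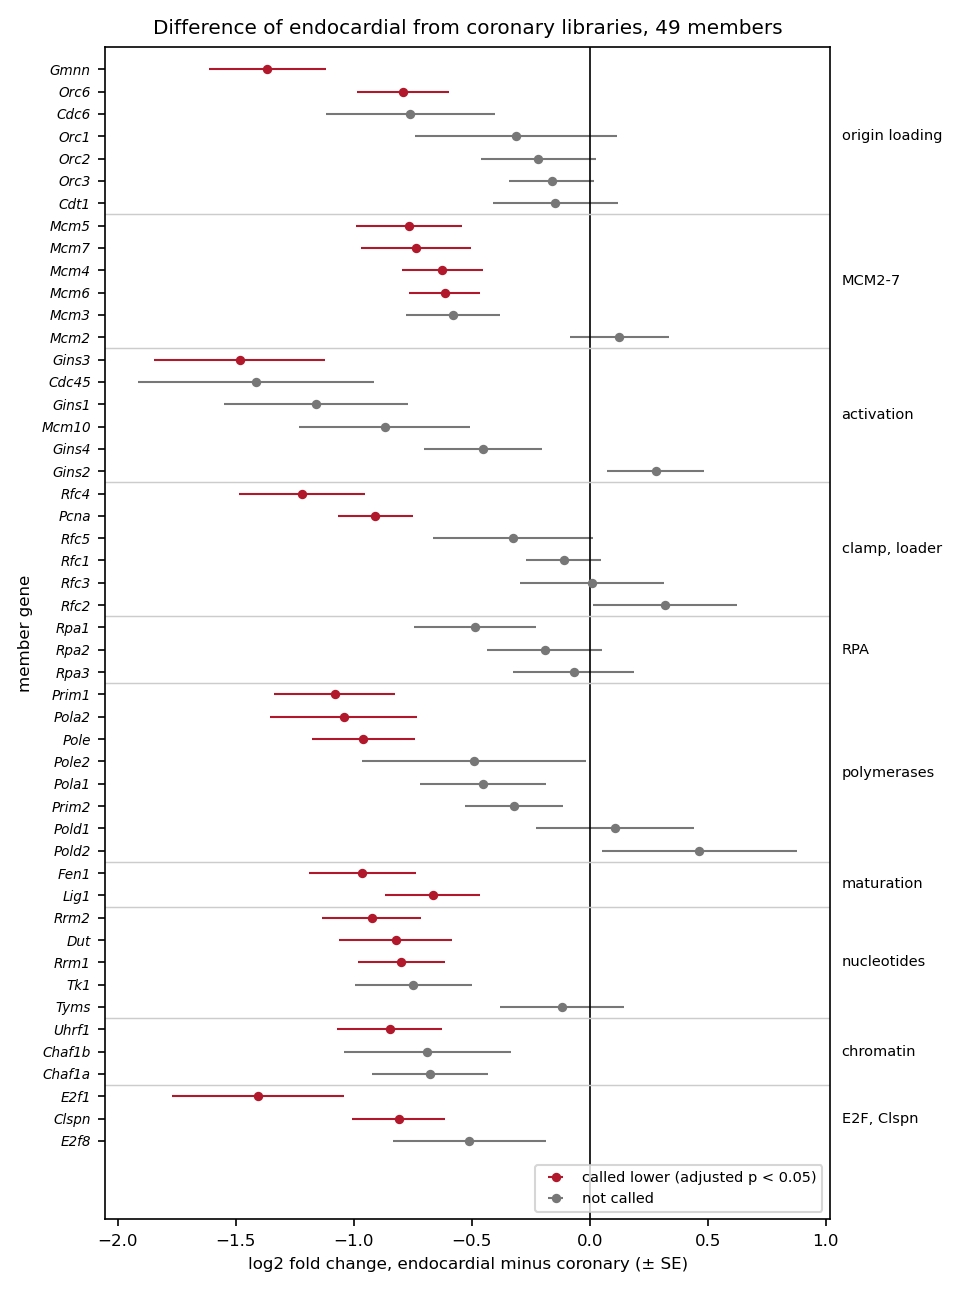
Log2 fold change of endocardial minus coronary libraries for each member (horizontal axis; point with ± 1 SE), grouped by role and sorted within each role; red points passed an adjusted p of 0.05 (edgeR) and grey points did not. The 20 red points all lie left of 0, and 6 grey points lie right of it, of which Pold2 is the farthest at 0.46.

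The MCM2-7 helicase unwinds the template, and 4 of its 6 subunits, Mcm4, Mcm5, Mcm6 and Mcm7, were lower in endocardial than in coronary libraries. Mcm6 had 86.6, 95.5 and 103 CPM in the endocardial, 132, 145 and 105 CPM in the arterial and 165, 161 and 173 CPM in the venous libraries. Endocardial libraries all lay below the coronary ones, although arterial replicate 3 was close to endocardial replicate 3. Against coronary libraries Mcm6 differed by log2 -0.61 ± 0.15 SE, edgeR adjusted p = 0.0101. Mcm4 had 79.7, 96.9 and 121 CPM in the endocardial, 147, 126 and 103 CPM in the arterial and 204, 175 and 180.0 CPM in the venous libraries. Endocardial replicate 3 was above arterial replicate 3, while all venous libraries were higher than both. Mcm4 differed by log2 -0.62 ± 0.17 SE, edgeR adjusted p = 0.0195, and it missed the threshold without endocardial replicate 1 (log2 -0.49, adjusted p = 0.0799) and without endocardial replicate 2 (adjusted p = 0.0815). Mcm5 and Mcm7 had log2 differences of -0.77 and -0.74, with edgeR adjusted p = 0.0291 and 0.0432. Mcm3 had an estimate of -0.58 (adjusted p = 0.0642) and passed with the replicate block (adjusted p = 0.0301) and with DESeq2 (adjusted p = 0.0489). For Mcm2 the estimate lay above 0. Mcm2 had 36.8, 51.2 and 73.8 CPM in the endocardial, 32.2, 38.6 and 46.99 CPM in the arterial and 63.8, 62.4 and 60.5 CPM in the venous libraries. Its endocardial libraries overlapped the arterial ones and lay on both sides of the venous ones. Its difference was log2 0.13 ± 0.21 SE, edgeR adjusted p = 0.799, and it was -0.18 without endocardial replicate 3. Whether Mcm2 differs from the other subunits was not tested.

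Origin recognition and loading factors gave 2 of 7 members lower, Gmnn and Orc6. Gmnn had 16.4, 13.9 and 17.1 CPM in the endocardial, 51.5, 27.3 and 35.6 CPM in the arterial and 53.4, 34.5 and 42.96 CPM in the venous libraries. All endocardial libraries lay below every coronary library, and arterial replicate 1 was nearly as high as venous replicate 1. Gmnn was 2.58-fold lower in endocardial than in coronary libraries (log2 -1.37 ± 0.25 SE, edgeR adjusted p = 0.00092). Against arterial libraries it was log2 -1.27 ± 0.27 SE, edgeR adjusted p = 0.00434, and against venous libraries log2 -1.46 ± 0.27 SE, edgeR adjusted p = 0.00174. Gmnn lies on chromosome 13, 24751845 to 24761923, minus strand (GRCm38). Cdt1, the loading factor that geminin binds, did not pass in any comparison. Cdt1 had 16.3, 17.2 and 12.9 CPM in the endocardial, 12.4, 19.5 and 14.5 CPM in the arterial and 17.04, 22.2 and 17.6 CPM in the venous libraries. The 3 populations overlapped, with a difference of log2 -0.15 ± 0.26 SE, edgeR adjusted p = 0.817. Orc6 encodes the smallest ORC subunit. Orc6 had 22.2, 25.7 and 22.5 CPM in the endocardial, 40.2, 30.8 and 40.4 CPM in the arterial and 48.4, 40.2 and 44.6 CPM in the venous libraries. Here endocardial libraries again lay below all coronary ones (log2 -0.79 ± 0.20 SE, edgeR adjusted p = 0.0106). Cdc6, which joins ORC before the helicase is loaded, varied widely within the endocardial group. Cdc6 had 13.98, 5.12 and 17.2 CPM in the endocardial, 11.3, 21.6 and 21.8 CPM in the arterial and 26.2, 20.01 and 23.1 CPM in the venous libraries. Its difference of log2 -0.76 ± 0.36 SE, edgeR adjusted p = 0.201 did not pass. Orc1, Orc2 and Orc3 had estimates of -0.31, -0.22 and -0.16 and did not pass.

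Among the genes of helicase activation, 1 of 6, Gins3, was lower in endocardial than in coronary libraries, and 2 of 6, Gins1 and Gins3, were lower than in venous libraries. Gins3 had 5.73, 4.97 and 3.19 CPM in the endocardial, 13.5, 9.45 and 13.5 CPM in the arterial and 13.7, 10.6 and 17.1 CPM in the venous libraries. Endocardial libraries lay below all coronary libraries at low levels. Its estimate was the most negative of all 49 members, log2 -1.48 ± 0.36 SE, edgeR adjusted p = 0.00966, but it missed the threshold without endocardial replicate 3 (log2 -1.28, adjusted p = 0.0509). The 4 GINS proteins form 1 complex, yet their genes had estimates of -1.16 (Gins1), 0.28 (Gins2), -1.48 (Gins3) and -0.45 (Gins4) against coronary libraries. Gins1 had 3.97, 2.88 and 6.38 CPM in the endocardial, 9.21, 7.03 and 7.79 CPM in the arterial and 10.8, 12.2 and 13.5 CPM in the venous libraries. Its endocardial libraries lay below all coronary ones. Gins1 missed the threshold against coronary libraries (log2 -1.16 ± 0.39 SE, edgeR adjusted p = 0.0607) and passed there with DESeq2 (adjusted p = 0.0191), and it was lower than in venous libraries (log2 -1.46, adjusted p = 0.0421), a call that it kept in 3 of 9 fits without 1 library. Gins4 had 18.8, 28.7 and 32.03 CPM in the endocardial, 46.2, 25.8 and 25.1 CPM in the arterial and 43.9, 36.00 and 42.03 CPM in the venous libraries. Endocardial and arterial values overlapped for Gins4, the GINS gene with the highest level per kb of exon. It differed by log2 -0.45 ± 0.25 SE, edgeR adjusted p = 0.293 and did not pass. Cdc45, the helicase partner of GINS, had 1.53, 12.04 and 8.69 CPM in the endocardial, 19.2, 19.4 and 10.4 CPM in the arterial and 21.9, 27.04 and 22.9 CPM in the venous libraries. Its estimate of log2 -1.41 ± 0.50 SE, edgeR adjusted p = 0.0869 did not pass here and passed with DESeq2 (adjusted p = 0.0221) and without the filter on low counts (adjusted p = 0.000584).

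The clamp gene Pcna had the highest level of all members per kb of exon, 99.6 CPM per kb in endocardial, 172 in arterial and 203 in venous libraries. Over all libraries Mcm4 followed, at 27.6 CPM per kb in endocardial, 34.9 in arterial and 51.9 in venous libraries, although in endocardial libraries Rpa3 stood above it at 30.7 CPM per kb. Mcm10 was the lowest member over all libraries, at 0.797 CPM per kb in endocardial, 1.27 in arterial and 1.67 in venous libraries. Pcna had 214, 242 and 261 CPM in the endocardial, 516, 382 and 340.2 CPM in the arterial and 530.4, 419 and 514 CPM in the venous libraries. All endocardial libraries were below every coronary library. Pcna was 1.88-fold lower in endocardial than in coronary libraries (log2 -0.91 ± 0.16 SE, edgeR adjusted p = 0.000623), and it passed against arterial (log2 -0.79, adjusted p = 0.00589) and venous libraries (log2 -1.03, adjusted p = 0.000854) taken alone. It lies on chromosome 2, 132249162 to 132253314, minus strand. Of the 5 clamp loader genes only Rfc4 was lower. Rfc4 had 9.78, 8.07 and 8.55 CPM in the endocardial, 20.2, 14.00 and 17.4 CPM in the arterial and 27.6, 21.9 and 23.8 CPM in the venous libraries. The endocardial libraries were again the lowest (log2 -1.22 ± 0.27 SE, edgeR adjusted p = 0.00431). Rfc1, Rfc2, Rfc3 and Rfc5 had estimates of -0.11, 0.32, 0.01 and -0.32 and did not pass.

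**Figure D4:**
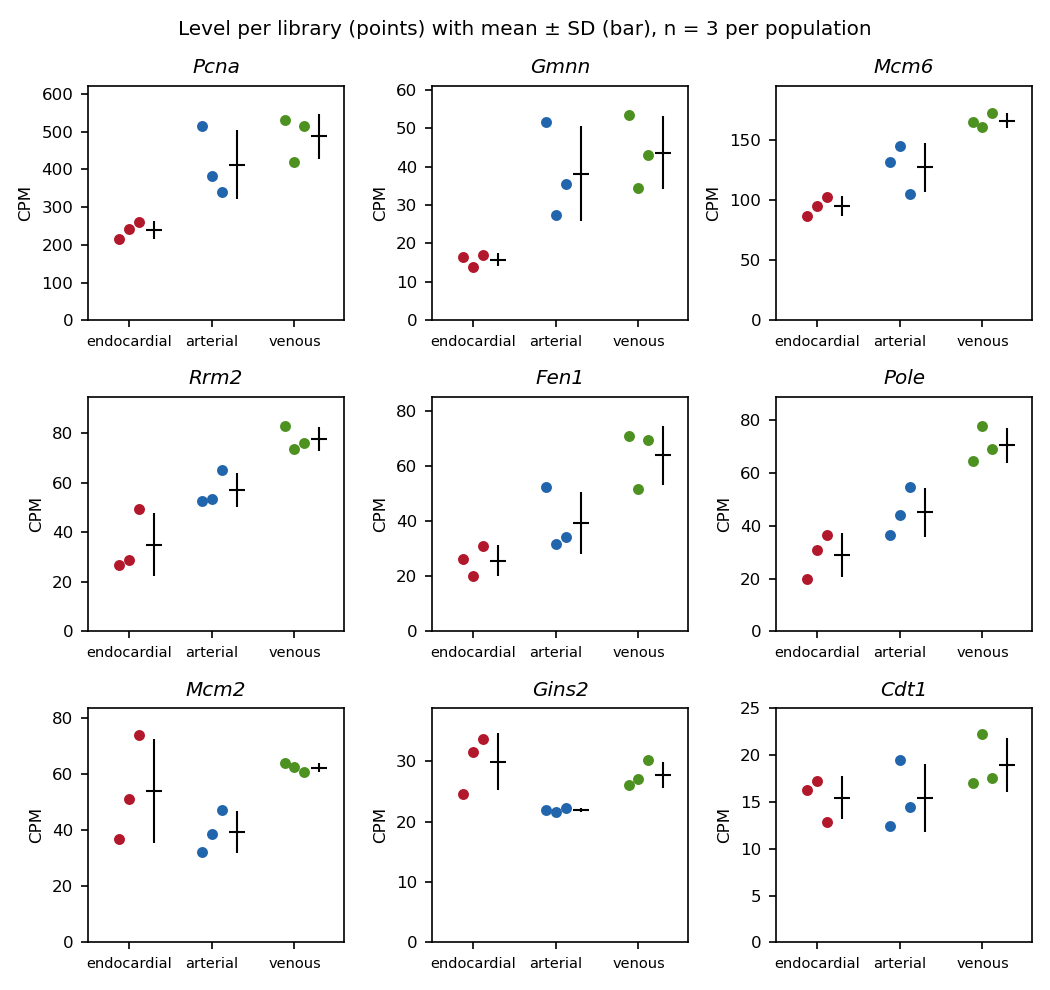
Level in CPM (vertical axis, from 0) of 9 members in each library (points) of the endocardial, arterial and venous populations, with mean ± SD over 3 libraries as black bars. For Pcna, Gmnn and Mcm6 all endocardial points lie below the coronary points, and for Mcm2, Gins2 and Cdt1 the endocardial points reach into or above the coronary range.

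The RPA complex coats single-stranded DNA, and 0 of its 3 genes passed in any of the 4 comparisons at the adjusted threshold. By DESeq2 the count was 0 as well, and 0 had an unadjusted p under 0.05 in any of them. Rpa1 had 20.2, 29.4 and 44.7 CPM in the endocardial, 28.3, 38.9 and 54.05 CPM in the arterial and 46.1, 55.7 and 42.03 CPM in the venous libraries. The 3 populations overlapped (log2 -0.49 ± 0.26 SE, edgeR adjusted p = 0.277). Rpa3 was among the most abundant members per kb of exon. Rpa3 had 40.03, 39.9 and 24.8 CPM in the endocardial, 54.5, 27.5 and 25.1 CPM in the arterial and 37.98, 34.5 and 39.9 CPM in the venous libraries. Rpa3 differed by log2 -0.07 ± 0.26 SE, edgeR adjusted p = 0.925, and its sign turned without endocardial replicate 3 (0.12) and without arterial replicate 1 (0.15).

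Polymerase and primase genes gave 3 of 8 lower, Pole, Prim1 and Pola2. Pole encodes the catalytic subunit of the leading-strand polymerase epsilon. Pole had 19.9, 30.7 and 36.5 CPM in the endocardial, 36.4, 44.3 and 54.7 CPM in the arterial and 64.8, 77.9 and 69.3 CPM in the venous libraries. Endocardial replicate 3 reached arterial replicate 1, and the venous libraries stood above all others. Pole differed by log2 -0.96 ± 0.22 SE, edgeR adjusted p = 0.00585. Prim1 encodes the catalytic primase subunit. Prim1 had 19.1, 18.3 and 19.8 CPM in the endocardial, 44.9, 32.8 and 21.7 CPM in the arterial and 46.4, 36.1 and 64.5 CPM in the venous libraries. Endocardial values lay close together and below all coronary ones (log2 -1.08 ± 0.26 SE, edgeR adjusted p = 0.00806). Pola2, the accessory subunit of polymerase alpha, was lower (log2 -1.04, adjusted p = 0.0329), while the catalytic Pola1 had an estimate of -0.45 (adjusted p = 0.343). Polymerase delta genes did not pass, with estimates of 0.11 for Pold1 and 0.46 for Pold2.

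Both genes of Okazaki fragment maturation were lower, the flap endonuclease gene Fen1 and the DNA ligase gene Lig1. Fen1 had 26.1, 19.96 and 30.9 CPM in the endocardial, 52.2, 31.5 and 34.1 CPM in the arterial and 70.6, 51.6 and 69.3 CPM in the venous libraries. All endocardial libraries were below the coronary ones, and arterial replicates 2 and 3 lay near endocardial replicate 3. Fen1 differed by log2 -0.96 ± 0.23 SE, edgeR adjusted p = 0.00756. Lig1 was lower (log2 -0.67, adjusted p = 0.0342) and missed the threshold without endocardial replicate 1 (log2 -0.43, adjusted p = 0.13).

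Nucleotide supply gave 3 of 5 lower, the ribonucleotide reductase genes Rrm1 and Rrm2 and the dUTPase gene Dut. Rrm2 had 26.7, 28.8 and 49.5 CPM in the endocardial, 52.6, 53.5 and 64.9 CPM in the arterial and 82.9, 73.5 and 75.9 CPM in the venous libraries. Endocardial replicate 3 came near the arterial libraries but did not overlap them. Rrm2 differed by log2 -0.92 ± 0.21 SE, edgeR adjusted p = 0.0059. Rrm1 had 78.3, 133 and 87.4 CPM in the endocardial, 159, 129 and 142 CPM in the arterial and 245, 189 and 194 CPM in the venous libraries. Endocardial replicate 2 lay above arterial replicate 2, and all venous libraries were higher (log2 -0.80 ± 0.18 SE, edgeR adjusted p = 0.0061). Dut had 37.05, 22.7 and 45.9 CPM in the endocardial, 64.6, 40.8 and 56.5 CPM in the arterial and 84.3, 55.8 and 75.6 CPM in the venous libraries. Endocardial replicate 3 exceeded arterial replicate 2 (log2 -0.82 ± 0.24 SE, edgeR adjusted p = 0.0274), and the call was lost without endocardial replicate 2 (log2 -0.59, adjusted p = 0.146). Thymidylate synthase, Tyms, had an estimate of -0.12 (adjusted p = 0.862), and thymidine kinase 1, Tk1, one of -0.75 (adjusted p = 0.0561), which passed with the replicate block (adjusted p = 0.0185) and with DESeq2 (adjusted p = 0.0365).

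Of 3 chromatin genes, Uhrf1, which recognises hemimethylated DNA behind the fork, was lower. Uhrf1 had 22.8, 43.6 and 33.6 CPM in the endocardial, 42.2, 40.95 and 55.4 CPM in the arterial and 66.96, 96.8 and 70.3 CPM in the venous libraries. Endocardial and arterial values overlapped, and the venous libraries stood above both (log2 -0.85 ± 0.22 SE, edgeR adjusted p = 0.0159). The call was lost without endocardial replicate 1 (log2 -0.64, adjusted p = 0.0623) and without endocardial replicate 3 (adjusted p = 0.0513). Chaf1a and Chaf1b, subunits of the chromatin assembly factor, had estimates of -0.68 and -0.69 against coronary libraries and did not pass (adjusted p = 0.0838 for Chaf1a). Chaf1a passed there with DESeq2 (adjusted p = 0.0453), and it was lower than in venous libraries (log2 -0.94, adjusted p = 0.0406), a call that it kept in 2 of 9 fits without 1 library. E2f1, an activator of the G1 to S genes, passed against arterial libraries, and against venous libraries it missed the threshold with edgeR and passed with DESeq2. E2f1 had 3.59, 4.68 and 4.55 CPM in the endocardial, 10.5, 13.8 and 14.8 CPM in the arterial and 9.29, 7.96 and 12.2 CPM in the venous libraries. Endocardial libraries lay below all others, and the arterial mean was the highest. The difference was log2 -1.41 ± 0.36 SE, edgeR adjusted p = 0.0138 against coronary, log2 -1.61 against arterial (adjusted p = 0.0128) and log2 -1.20 against venous libraries (adjusted p = 0.07, and 0.0258 with DESeq2). Clspn encodes claspin, a fork and checkpoint protein. Clspn had 27.04, 30.5 and 37.3 CPM in the endocardial, 56.97, 51.5 and 40.9 CPM in the arterial and 69.3, 50.6 and 64.97 CPM in the venous libraries. The endocardial libraries were the lowest 3 (log2 -0.81 ± 0.20 SE, edgeR adjusted p = 0.00938). E2f8, a repressing E2F factor, had an estimate of -0.51 and did not pass.

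Of the 20 members lower than in coronary libraries, 11 passed in each fit that left out 1 library: Mcm6, Orc6, Gmnn, Pcna, Rfc4, Pole, Prim1, Fen1, Rrm1, Rrm2 and Clspn. Mcm5 lost its call without endocardial replicate 1 (adjusted p = 0.109), endocardial replicate 3 (0.136), arterial replicate 2 (0.0698) and venous replicate 2 (0.0569). Mcm7 lost it in 6 of 9 such fits, with the highest adjusted p of 0.195 without endocardial replicate 2. Pola2 and Lig1 each lost it in 5 of 9, with the highest adjusted p of 0.153 without endocardial replicate 3 and 0.13 without endocardial replicate 1. E2f1 lost it without venous replicate 3 (0.0554), and Dut also without venous replicate 1 (0.0519). Against arterial libraries alone, Gmnn and Pcna passed in all 9 fits, E2f1 failed without arterial replicate 2 (0.0645), Gins3 failed in 6 and Rfc4 in 8. With the replicate number as a block, 8 members were lower than in arterial libraries, against 5 without it, and the 3 more were Pole (adjusted p = 0.0416), Rrm2 (0.024) and Dut (0.0355). Against venous libraries 13 of 23 passed in every fit, and 15 members passed without venous replicate 1.

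Between the coronary populations, 0 of 49 members were called in arterial against venous libraries by edgeR and 0 by DESeq2, against 0.76% of all genes called lower and 0.31% called higher. At an unadjusted p under 0.05, 12 members stood lower in arterial libraries and 0 higher (all genes either way 8.48%). The member median was -0.43 on the log2 scale, 45 of 49 estimates were below 0 (47.3% of all genes), and all genes had a median of 0.03. In 24 of 49 members every arterial library lay below every venous one, against 8.52% of all genes, and these 24 held all 6 MCM2-7 genes. In 35 of 49 the arterial library was below the venous library in all 3 batches (17.2% of all genes). Pold1 had the most negative estimate, log2 -1.33 ± 0.39 (SE, edgeR adjusted p = 0.189). It had 10.4, 23.1 and 10.9 CPM in endocardial, 7.22, 10.9 and 7.79 CPM in arterial and 14.97, 30.7 and 19.9 CPM in venous libraries, and it passed when the filter on low counts was dropped (adjusted p = 0.0337).

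The other genes of the pathway were 60 further replication and S-phase genes, all tested. Of these, 22 (36.7%) were lower and 0 higher in endocardial than in coronary libraries (23 lower and 1 higher with DESeq2). Of all genes, 7.0% were called lower and 6.91% higher there. The median of the 60 genes was -0.56 on the log2 scale. Against arterial libraries 12 of 60 were lower (all genes 5.92%), and against venous libraries 20 of 60 (all genes 5.81%). Between arterial and venous libraries 0 were called by edgeR and 0 by DESeq2. There 8 of 60 had an unadjusted p under 0.05, all lower in arterial libraries (all genes either way 8.48%). Atad2 had 95.7, 105 and 102 CPM in the endocardial, 199.7, 163 and 192 CPM in the arterial and 224, 199.6 and 242 CPM in the venous libraries. All endocardial values of Atad2, a chromatin ATPase gene, were below all coronary ones (log2 -1.0 ± 0.14 SE, edgeR adjusted p = 0.000105). Pclaf had 55.00, 51.2 and 56.7 CPM in the endocardial, 114, 86.97 and 92.2 CPM in the arterial and 131, 122 and 167 CPM in the venous libraries. Pclaf encodes a PCNA-binding factor, and it separated in the same way (log2 -1.11 ± 0.17 SE, edgeR adjusted p = 0.000177). Ticrr had 7.87, 6.13 and 10.3 CPM in the endocardial, 17.6, 20.96 and 23.5 CPM in the arterial and 21.1, 32.9 and 26.1 CPM in the venous libraries. Ticrr, known as treslin, acts in helicase activation, and it had the most negative estimate of the named genes on this list (log2 -1.53 ± 0.29 SE, edgeR adjusted p = 0.00113). Brca1, Asf1b, Esco2, E2f7, Hells and Wdhd1 were also lower, with log2 differences of -1.01, -1.42, -1.40, -1.08, -0.88 and -0.95.

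Mitosis genes stood further apart than the replication genes. Of 32 mitosis and G2/M genes, 29 were lower and 0 higher in endocardial than in coronary libraries (90.6% lower, all genes 7.0%). The median of the 32 genes was -1.35 on the log2 scale. Their summed level was 1569 to 1843 CPM in endocardial, 3668 to 5321 CPM in arterial and 4787 to 6284 CPM in venous libraries. Against arterial libraries alone 27 of 32 were lower (84.4%), beside 5 of 49 replication members (10.2%) and 5.92% of all genes. Mki67 had 536, 462 and 542 CPM in the endocardial, 1908, 1175 and 1251 CPM in the arterial and 1900.0, 1594 and 2329 CPM in the venous libraries. Mki67, whose product coats mitotic chromosomes, was lower in all endocardial libraries (log2 -1.71 ± 0.18 SE, edgeR adjusted p = 3.25e-06). Top2a had 245, 207 and 231 CPM in the endocardial, 589, 442 and 396 CPM in the arterial and 686, 598 and 777 CPM in the venous libraries. Top2a, the topoisomerase gene of G2 and mitosis, followed (log2 -1.33 ± 0.16 SE, edgeR adjusted p = 1.38e-05). Whether the lists differ in their change was not tested.

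**Figure D5:**
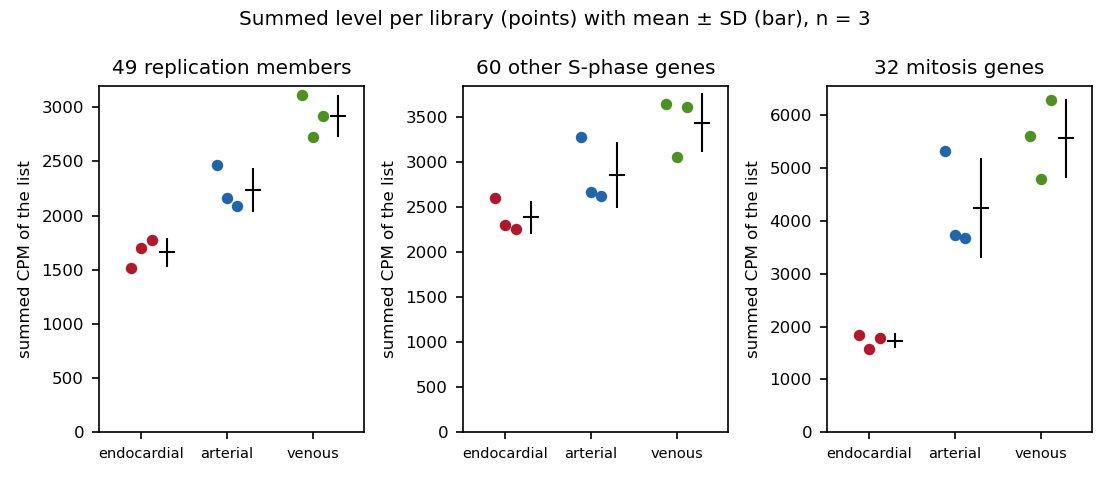
Summed CPM per library (points; vertical axis from 0) of the 49 replication members, the 60 other replication and S-phase genes and the 32 mitosis genes in the endocardial, arterial and venous populations, with mean ± SD over 3 libraries as black bars. Endocardial libraries are the lowest in all 3 panels, at 1513 to 1770 CPM for the members and 1569 to 1843 CPM for the mitosis genes.

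Of 17 cell cycle inhibitor and quiescence genes, 1 was higher (5.88%, all genes 6.91%) and 5 were lower (29.4%, all genes 7.0%) in endocardial than in coronary libraries. Cdkn1c had 1171, 1568 and 1336 CPM in the endocardial, 227, 206 and 208 CPM in the arterial and 145, 156 and 127 CPM in the venous libraries. Cdkn1c, which encodes the inhibitor p57, was higher in every endocardial library than in any coronary one (log2 2.96 ± 0.13 SE, edgeR adjusted p = 1.53e-10). Cdkn1a had 12.2, 12.04 and 8.96 CPM in the endocardial, 20.3, 42.5 and 24.9 CPM in the arterial and 27.5, 21.7 and 24.7 CPM in the venous libraries. Cdkn1a, the p21 gene, stood lowest in the endocardial libraries (log2 -1.28 ± 0.28 SE, edgeR adjusted p = 0.00475). Cdkn1b had 49.7, 31.4 and 41.6 CPM in the endocardial, 64.7, 68.4 and 54.3 CPM in the arterial and 96.7, 92.4 and 92.1 CPM in the venous libraries. The p27 gene Cdkn1b was lower as well (log2 -0.90 ± 0.18 SE, edgeR adjusted p = 0.00218).

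Summed levels of markers of other cell types differed between the populations. The summed level of 10 fibroblast markers was 1617 to 1965 CPM in endocardial, 105 to 121 CPM in arterial and 1415 to 1659 CPM in venous libraries, with none at 0. Of the 10, 7 were higher and 0 lower in endocardial than in arterial libraries (edgeR), while against venous libraries 3 were higher and 3 lower. For 10 mural markers it was 83.0 to 151 CPM in endocardial, 537 to 847 CPM in arterial and 241 to 347 CPM in venous libraries, and Myh11 was at 0 in endocardial replicates 2 and 3. For 15 cardiomyocyte markers it was 524 to 637 CPM in endocardial, 282 to 412 CPM in arterial and 421 to 586 CPM in venous libraries, with Nppa or Nkx2-5 at 0 in 8 of the 9 libraries. For 10 erythroid and platelet markers it was 111 to 251 CPM in endocardial, 491 to 1095 CPM in arterial and 226 to 362 CPM in venous libraries, with the erythroid factor Klf1 at 0 in 6 of the 9. For 10 leukocyte markers it was 12.5 to 24.9 CPM in endocardial, 14.8 to 37.1 CPM in arterial and 7.96 to 11.2 CPM in venous libraries. The epicardial list of 8 genes gave 26.2 to 33.5 CPM in endocardial, 183 to 211 CPM in arterial and 157 to 185 CPM in venous libraries. Genes within some of these lists did not move together. Of 7 epicardial genes tested, only Wt1 was lower in endocardial than in arterial libraries (edgeR), and 5 had estimates above 0. Among mural markers Rgs5, Kcnj8 and Abcc9 were lower and Pdgfrb higher in endocardial than in coronary libraries. Of 8 erythroid and platelet genes tested, only Hbb-bs was called against coronary libraries, as lower. The part of these cell types in the replication gene differences was not tested. Exons of Mcm7, Orc6, Rfc4, Pole, Fen1 and Lig1, among the members called against coronary libraries, overlap those of a gene on the opposite strand in the annotation. So do exons of Tk1 and Chaf1a, called against venous libraries only, and of some members not called, Cdc45 among them. Whether counting used strand is not given in the sources used here. Reads in the shared stretches may therefore come from either gene, and the length of these stretches was not measured.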

How the data were processed

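Polyadenylated RNA of 9 sorted endothelial libraries (1 ng total RNA each, amplified, single reads) was measured. The protocol names both a NEB Ultra kit and the NuGEN Ovation Single Cell system, and which of them made these libraries is not clear. The authors deposited gene-level expected counts, made with RSEM 1.2.3 after CASAVA 1.8.2 and cutadapt 1.3 on GRCm38, per the submitters' processing notes. No source used here names the aligner or the strandedness of counting. Of the values above 0, 45.5% were not whole, and all were rounded. Symbols were taken from the GENCODE M21 annotation (97.67% of rows), which also gave exon lengths. Low amounts of RNA and amplification can add noise to weakly expressed members.

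Tests used the robust quasi-likelihood F test of edgeR 4.0.16 (R 4.3.3) after TMM scaling and filterByExpr with a minimum count of 10, in 1 fit of 9 libraries without covariates, with Benjamini-Hochberg adjustment over 17103 genes and a threshold of 0.05. The common dispersion was 0.409 (coefficient of variation 0.639). The SE is the absolute log2 fold change over the square root of F. On simulated counts for these 17103 genes, the endocardial to coronary comparison recovered 41% of genes changed 2-fold and 95% of those changed 4-fold, and the arterial to venous comparison 26% and 83%. DESeq2 1.42.0, RLE scaling, no filter, a fit of only the 2 populations compared, leaving out each library and a replicate block were tried.

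Per the labels, the batch number equals the replicate number, so that same-numbered libraries are paired by batch. Correlations of their deviations from the population means ranged over 0.083 to 0.165 in batch 1, 0.0364 to 0.146 in batch 2 and -0.0902 to 0.0924 in batch 3. Blocked values are printed where they change a call.

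The members and gene lists were chosen with earlier results of these data known. Members named with all values were those called in a comparison, up to 12 each by smallest p, the member of each role with the smallest p or the highest level per kb, and Pcna, Mcm2, Cdc6, Cdt1 and Gmnn; Cdc45, Gins1 and Pold1 were added after their values were seen. Up to 6 called genes per comparison were named from the list of other replication genes, and Mki67, Top2a, Cdkn1a, Cdkn1b and Cdkn1c always. One gene that this rule selects is not reported here. Promoter windows came from RefSeq (GRCm38.p6) for 41 members. A planned search of member proteins was not run, and their sequences were not analysed here.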

Additional observations from a re-analysis of the deposited data

How the results depend on the processing

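No member was called higher in endocardial libraries under any setting tried, and the medians of the members kept their sign in all of them. Members lower than in coronary libraries numbered 20, and 15 to 21 when 1 library was left out. With the replicate block and without endocardial replicate 1, a setting chosen after seeing the data, they were 13. The calls lost there included Mcm6 (edgeR adjusted p = 0.0555), Orc6 (0.0663) and Clspn (0.0709). These members had passed in every fit that left out 1 library without the block. Against arterial libraries the count was 5, against 8 with the replicate block, 3 in the fit of only the 2 populations, 3 with the block and without endocardial replicate 1, and 3 to 5 when 1 library was left out. Of the other replication genes, 12 were called against arterial libraries, 5 in the fit of only the 2 populations and 4 to 14 when 1 library was left out. Against venous libraries 23 members were called, and 15 to 23 when 1 library was left out, with 1130 to 1871 among all genes (1753 with all libraries). Between arterial and venous libraries 0 members were called, 1 without the filter on low counts and 1 with the block and without endocardial replicate 1, in both cases Pold1. Of all genes 183 were called there, 439 without the filter, 405 with DESeq2 and 120 to 225 when 1 library was left out. Fewer genes tested or fewer samples define several of these settings, and the cause of the other shifts was not tested. Against coronary libraries signs turned in at least 1 setting for 6 members, and 0 of these were called: Mcm2, Pold1, Rfc3, Rfc5, Rpa3 and Tyms. When 1 library was left out, Pold1 spanned -0.39 to 0.3, Rfc3 -0.41 to 0.29, Rfc5 -0.59 to 0.01 and Tyms -0.48 to 0.1 on the log2 scale, and in all 4 the sign turned without endocardial replicate 2. Rpa3 spanned -0.19 to 0.15 (0.12 without endocardial replicate 3 and 0.15 without arterial replicate 1), and Mcm2 spanned -0.18 (without endocardial replicate 3) to 0.34. Of the values of named genes under these settings, 58 lost a call in the same direction, 51 of them with 1 library left out. The replicate block changed no call of a member other than those given with the results. The self-test found fewer 2-fold changes between arterial and venous libraries (26%) than between endocardial and coronary ones (41%). It changed randomly drawn genes above a set mean level, by 2-fold or 4-fold only. Differences of the size of the member medians were not simulated, nor were the members drawn as a set. The 0 calls between arterial and venous libraries do not show that levels were equal.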
